A study of Mus musculus with 141 samples.

Results

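The region described here is a 1.7-Mb stretch of mouse chromosome 5, from 74.4 to 76.1 Mb of build mm10, that carries Fip1l1, Chic2, Gsx2, Pdgfra, Kit and Kdr. Its members are the cytosine positions of a single-cell methylation table that fall between those bounds, 935 of 1416034 positions in all (0.0660%). Neighbouring positions on opposite strands were joined, which gave 884 CpGs. The cells were IdhR132H mouse glioma cells, which carry mutant isocitrate dehydrogenase (IDH). The first group was cultured with 1 µM AG-881 for more than 2 weeks, and the second with the vehicle DMSO over the same time. AG-881 (vorasidenib) is an inhibitor of mutant IDH enzymes. Live cells, positive for calcein AM and negative for TO-PRO-3, were sorted one per well, and their DNA went through single-cell reduced representation bisulfite sequencing, in which digestion with MspI favours CpG-dense sequence. The table holds 67 AG-881 cells and 74 DMSO cells. The mutant IDH allele was common to both groups, and the line is a single model whose genetic background is not given in the sources used here. Each group is 1 culture, so differences between groups carry no test.

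Mutant IDH makes 2-hydroxyglutarate, which inhibits the TET enzymes that start the removal of DNA methylation. In human IDH-mutant glioma, methylation at binding sites of the insulator protein CTCF between FIP1L1 and PDGFRA is known to weaken a domain boundary, so that an enhancer near FIP1L1 can contact PDGFRA. PDGFRA, KIT and KDR encode receptor tyrosine kinases for platelet-derived growth factor, stem cell factor and vascular endothelial growth factor, and PDGFRA drives growth of glial progenitors and of many gliomas. The question is how methylated the gene ends and the sequence between them were in the mouse cells, and whether AG-881 cells differed from DMSO cells there.

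A level below is the methylated share of calls, where a call is 1 CpG in 1 cell. Intervals are exact 95% binomial intervals (Clopper-Pearson). They cover counting error only and are too narrow in so far as calls of 1 cell go together. "Shared" CpGs were called in at least 5 cells of each group, and they are the basis of comparisons between groups; levels over every call, which mix CpGs seen in different cells, are also given. The neighbourhood was sparsely called: 202 of its 884 CpGs were shared (22.9%), against 30.0% in the genome, and 178 were called in 1 cell. A cell had a median of 48 calls there in the AG-881 group (7 to 135) and 38 in the DMSO group (0 to 120). Genome-wide, a cell had a median of 89972 called CpGs in the AG-881 group and 68151 in the DMSO group. Each group was sequenced as 4 library pools, and no pool held cells of both groups, so that pool and group cannot be told apart within a pool.

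Promoters of 4 genes are shown here, to compare their CpG content, from 250 bases before to 50 after the RefSeq start (GRCm38.p6), 5′ to 3′ on the strand of the gene, with CpGs that have a call in the table in capitals. The Kdr promoter (chr5:75978406-75978705, minus strand) and the Gsx2 promoter (chr5:75075351-75075650, plus strand) belong to the starts with the lowest values of AG-881 minus DMSO at shared CpGs in the neighbourhood. The Chic2 promoter (chr5:75044592-75044891, minus strand) is a dense CpG island, and the Pdgfra promoter (chr5:75152001-75152300, plus strand) has fewer CpGs than the others shown.
Kdr promoter: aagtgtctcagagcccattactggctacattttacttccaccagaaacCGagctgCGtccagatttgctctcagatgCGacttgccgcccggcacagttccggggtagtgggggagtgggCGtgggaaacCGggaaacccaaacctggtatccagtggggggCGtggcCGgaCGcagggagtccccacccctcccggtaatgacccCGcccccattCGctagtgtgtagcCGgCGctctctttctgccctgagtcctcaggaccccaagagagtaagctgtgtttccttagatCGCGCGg
Gsx2 promoter: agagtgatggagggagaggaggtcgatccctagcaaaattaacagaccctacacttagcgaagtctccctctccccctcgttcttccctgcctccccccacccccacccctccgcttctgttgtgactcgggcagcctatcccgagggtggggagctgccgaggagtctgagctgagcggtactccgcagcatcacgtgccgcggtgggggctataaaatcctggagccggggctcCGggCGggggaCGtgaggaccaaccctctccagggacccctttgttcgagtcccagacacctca
Chic2 promoter: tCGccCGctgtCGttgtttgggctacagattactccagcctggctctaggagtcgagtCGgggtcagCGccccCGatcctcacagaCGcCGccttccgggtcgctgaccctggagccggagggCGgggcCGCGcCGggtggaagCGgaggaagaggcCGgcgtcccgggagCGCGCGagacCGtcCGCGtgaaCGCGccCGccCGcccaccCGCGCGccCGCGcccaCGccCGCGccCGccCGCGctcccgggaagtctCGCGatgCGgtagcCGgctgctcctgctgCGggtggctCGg
Pdgfra promoter: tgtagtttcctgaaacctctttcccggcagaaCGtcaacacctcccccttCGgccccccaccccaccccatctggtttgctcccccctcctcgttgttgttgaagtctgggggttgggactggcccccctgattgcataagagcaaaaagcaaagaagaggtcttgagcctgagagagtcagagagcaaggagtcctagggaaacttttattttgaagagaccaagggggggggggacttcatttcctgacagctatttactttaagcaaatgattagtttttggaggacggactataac
The Chic2 promoter holds 48 CpGs, 41 of them called, and the Pdgfra promoter holds 5 CpGs, 2 of them called in 1 DMSO cell. The Kdr promoter has 15 of 19 CpGs called, and the Gsx2 promoter has 3 of 17. Of the 8 shared CpGs in the first 500 bp of Kdr, 3 lie at the end of the printed sequence and the others beyond it. Over the printed Kdr sequence the groups differed by -8.38 points, with an interval of -18.6 to 3.02. MspI sites (CCGG) number 6 in the Kdr promoter, 2 in Gsx2, 7 in Chic2 and 1 in Pdgfra. Of all 32585 promoters of this length, 53.1% hold CCGG. Their median is 7 CpGs, and 43.3% hold at most as many CpGs as that of Pdgfra. The G-rich end of the CTCF core motif (AGGGGGC, searched on both strands) was absent from these windows at the 6 genes and present in 10.7% of all promoters. The CTCF sites of the boundary itself could not be located here, since no genome sequence was used.

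The starts of the genes differed in level within 1 kb of the RefSeq start, here over every call. The starts nearest to 0 were those of Fip1l1, an mRNA 3′-end processing factor (start at 74535491), Scfd2, a vesicle trafficking gene on its other side (74531742), and Chic2 (75044641). At Fip1l1, 0 of 161 AG-881 calls were methylated (interval 0 to 2.27), for which the limit of 3 calls is 1.86%, and 2 of 149 DMSO calls were (1.34%). At Scfd2 the levels were 1.41% of 142 AG-881 calls and 0.568% of 176 DMSO calls. The intervals of these 3 starts overlap each other in the AG-881 group, while in the DMSO group Chic2, at 6% (4.32 to 8.08), lay above Scfd2 and its interval met those of Fip1l1 and Kit. Kit (75574987) came next, with 15.3% of 85 AG-881 calls methylated (interval 8.40 to 24.7) and 14.3% of 91 DMSO calls (7.83 to 23.2). Kdr (75978455) stood above Kit in the DMSO group and overlapped it in the AG-881 group, at 25.8% of 221 AG-881 calls (20.2 to 32.1) and 31.9% of 229 DMSO calls (25.9 to 38.3). Gsx2 (75075601), a homeobox gene of forebrain progenitors, was higher than Kdr in both groups over every call, at 47.1% of 172 AG-881 calls (39.5 to 54.8) and 50% of 168 DMSO calls (42.2 to 57.8). At shared CpGs the AG-881 intervals of these 2 starts overlapped, with 32.9% at Gsx2 (22.5 to 44.6) and 31.4% at Kdr (24.5 to 38.9), against DMSO levels of 50.6% at Gsx2 (39.3 to 61.9) and 36.6% at Kdr (29.4 to 44.3). Among 8795 measured protein-coding starts, 93.5% had a DMSO level at or below that of Gsx2, 88.0% at or below that of Kdr and 80.1% at or below that of Kit.

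At Pdgfra, the low CpGs that were measured lay inside the gene. Within 500 bp of its RefSeq start (75152251) there were 0 AG-881 calls and 2 DMSO calls from 1 cell, so the level at the start itself was not measured. Within 1 kb, 16 of 27 AG-881 calls were methylated (59.3%, interval 38.8 to 77.6), against 18 of 26 DMSO calls (69.2%, interval 48.2 to 85.7), each from 5 cells. No CpG was shared there, so the groups were not compared at this start. A stretch upstream, from 75148602 to 75150384, was methylated at 80.8% of 99 AG-881 calls and 79.5% of 39 DMSO calls. A CpG cluster of 272 bp inside the gene (75156332 to 75156603) was low, with 7.19% of 153 AG-881 calls and 12% of 83 DMSO calls methylated. At the 12 shared CpGs of the 5-kb window around this cluster, the AG-881 pools had 8.62%, 0%, 4.55% and 10.0%, and the DMSO pools had 9.09%, 0%, 38.9% and 0%. The DMSO value above the rest came from 18 calls in 4 cells, and the groups overlapped: 6.99% of 143 AG-881 calls were methylated and 11.8% of 76 DMSO calls, a difference of -4.85 points (-15.0 to 3.49).

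**Figure D1:**
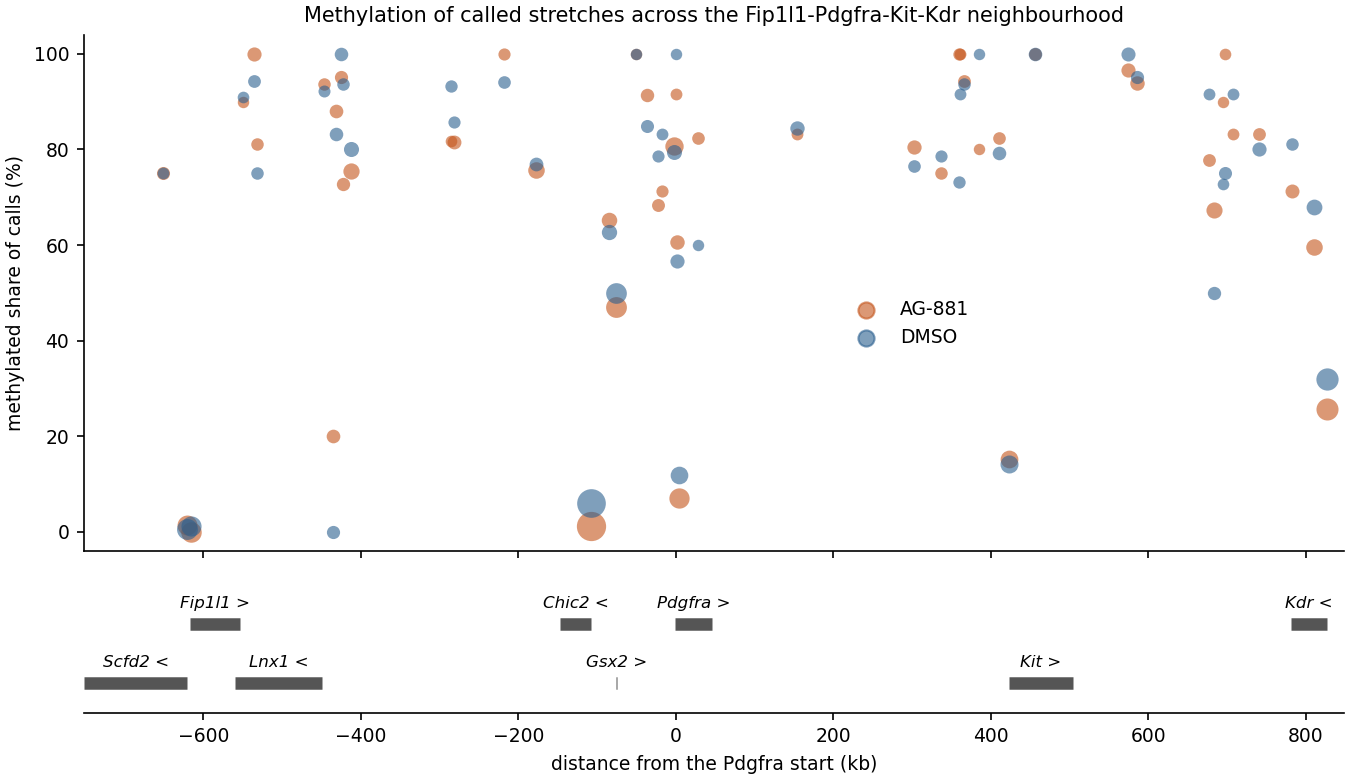
Methylated share of calls (%) in stretches of CpGs with gaps of at most 500 bp and 10 or more calls in each group, against distance from the Pdgfra start (kb). Point area grows with the number of calls, and gene bars are drawn below with the direction of transcription. The starts of Scfd2, Fip1l1, Chic2 and Kit and a cluster inside Pdgfra lie low in both groups, Gsx2 and Kdr lie between, and most other stretches lie above 60%.

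Sequence between the genes was mostly methylated in both groups. There were 20 stretches with at least 20 calls in each group, gene starts included. With the calls of both groups pooled, 11 of them had a level of 60% or more, 6 were below 20% and 3 lay between. The level of a single group can fall in another class. Of the 6 low stretches, 4 lay at the starts of Scfd2, Fip1l1, Chic2 and Kit and 1 inside Pdgfra. The other lay between Fip1l1 and Chic2, in the lncRNA gene Gm15984, with 20% of 25 AG-881 calls and 0% of 21 DMSO calls methylated. From Fip1l1 to Chic2, the body of Lnx1 included, 82.6% of 540 AG-881 calls and 82.1% of 436 DMSO calls were methylated. From Chic2 to Gsx2 the levels were 62.1% of 66 AG-881 calls and 64.2% of 67 DMSO calls. From Gsx2 to Pdgfra they were 77.7% of 193 AG-881 calls and 85.3% of 129 DMSO calls, a difference of -7.55 points whose interval (-16.2 to 1.7) includes 0. The sequence from Pdgfra to Kit had 83.3% in AG-881 cells and 80.3% in DMSO cells, and that from Kit to Kdr had 80.6% in AG-881 cells and 80.3% in DMSO cells. The 3′ ends gave almost no data. Those of Fip1l1, Chic2, Pdgfra and Kit had 0 calls, that of Gsx2 had 2 calls in each group, and that of Kdr had 7 of 8 AG-881 calls and 8 of 9 DMSO calls methylated.

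The interval from the end of Fip1l1 to Pdgfra is the one whose human counterpart holds the boundary. Outside genes and more than 1 kb from any gene end, it had 28 shared CpGs. At these, the AG-881 pools had levels of 79.7%, 70.2%, 80% and 71.9%, and the DMSO pools had 75%, 80.7%, 81.8% and 74.6%. The pools of both groups overlapped. Together, 165 of 218 AG-881 calls were methylated (75.7%) and 159 of 204 DMSO calls (77.9%), a difference of -2.25 points with an interval of -10.6 to 6.15. AG-881 was lower at 13 of the 28 CpGs, higher at 8 and equal at 7. Counting error alone leaves room for any difference within these bounds. Over every call there, cells with 3 or more calls had a median level of 81.4% over 52 AG-881 cells (SD 16.2) and 83.3% over 52 DMSO cells (SD 14.9), and 23 AG-881 cells and 18 DMSO cells lay between 20% and 80%. The longest run without a called CpG in this interval was 52.5 kb, from 74984554 to 75037016, and nothing is known from these data about sites inside it.

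Compared with the rest of the genome, CpGs of the neighbourhood with few called CpGs nearby were more methylated. The classes count called CpGs and not those of the sequence, so sequence with many CpGs but few calls falls in the lower classes. Among CpGs with 1 to 4 called CpGs within 100 bp, themselves included, 77.6% of AG-881 calls and 78.2% of DMSO calls were methylated in the neighbourhood, against 65.6% of AG-881 calls and 66% of DMSO calls in the rest of the genome. The excess over the rest was 12 points in AG-881 cells (9.92 to 14.0) and 12.3 points in DMSO cells (10.0 to 14.4). Among CpGs with 20 or more called CpGs within 100 bp the order turned round. The neighbourhood had 0.450% in AG-881 cells and 3.28% in DMSO cells, against 6.56% in AG-881 cells and 7.66% in DMSO cells in the rest. That class is made of 80 CpGs in the neighbourhood, so it stands for a few places. Among 1244 blocks of the same length along the genome, 78.5% had a DMSO level over every call at or below the 46.8% of the neighbourhood, and the median block had 34.9%.

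**Figure D2:**
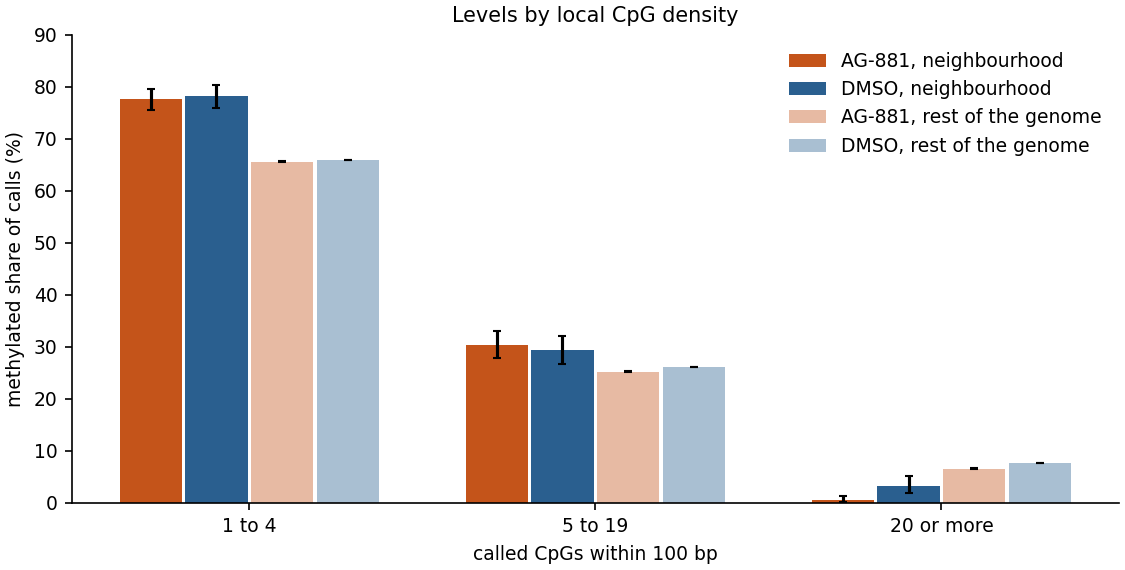
Methylated share of every call (%) by the number of called CpGs within 100 bp, with AG-881 left of DMSO, for the neighbourhood (dark bars) and the rest of the genome (light bars). Error bars are exact 95% binomial intervals. Neighbourhood bars exceed those of the rest where 1 to 4 CpGs were called (77.6% in AG-881 cells and 78.2% in DMSO cells, against 65.6% and 66% in the rest). They lie below them where 20 or more were called.

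Over the whole neighbourhood, the shared CpGs were methylated at 31.6% of 1859 AG-881 calls and 34.7% of 1654 DMSO calls, a difference of -3.13 points (-6.29 to 0.0296). The AG-881 pools had 29.8%, 30.7%, 32.2% and 33.3%, and the DMSO pools had 29.4%, 36.9%, 37.7% and 36.4%. The DMSO pool at 29.4% lay below every AG-881 pool, and the other DMSO pools lay above every AG-881 pool. The pools differed in how many calls came from the Chic2 start, which was near 0%. These were 212 of 503 calls in the DMSO pool at 29.4%, and 68 of 295, 131 of 403 and 135 of 453 in the other DMSO pools. In the AG-881 pools they were 155 of 433, 190 of 473, 147 of 422 and 134 of 531. Over every call the levels were 46.9% in AG-881 cells and 46.8% in DMSO cells, a difference of 0.0590 points (-2.37 to 2.49). The difference at shared CpGs in the rest of the genome was -1.32 points, and 13.9% of the blocks had a difference as low as that of the neighbourhood. Of the 202 shared CpGs, AG-881 was lower at 62, higher at 43 and equal at 97.

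Of the 5-kb windows in the neighbourhood, 7 had at least 50 calls and 10 cells in each group, and 1 differed by 10 points or more, the window of the Gsx2 start, which was lower with AG-881. Genome-wide, 4.86% of 13572 such windows were lower by that much with AG-881 and 1.92% higher. With 7 windows, the count is too small to place against that background. The other 6 windows differed by less than 10 points, and each interval of the difference includes 0. The window inside Kdr (75960001 to 75965000) had 59.7% of 62 AG-881 calls and 68% of 50 DMSO calls methylated, a difference of -8.32 points (-26.5 to 10.8). The window of the Kdr start (75975001 to 75980000) differed by -5.23 points, that of the cluster inside Pdgfra (75155001 to 75160000) by -4.85 points, and that of the Chic2 start (75040001 to 75045000) by -0.573 points. The window of the Fip1l1 start (74535001 to 74540000) had 0 of 69 AG-881 calls and 1 of 50 DMSO calls methylated, a difference of -2 points (-10.6 to 3.56). The window of the Scfd2 start (74530001 to 74535000) had 2 of 133 AG-881 calls and 0 of 143 DMSO calls methylated, a difference of 1.5 points (-1.37 to 5.33). Fewer windows were measured with most pools left out. The count became 0 of 5 measured windows without pool 2, 0 of 4 without pool 4, and 0 of 3 without pool 6 or without pool 8. It was 2 of 7 without pool 3. The Gsx2 start still differed by -18.7 points without pool 2 and by -30.5 points without pool 6. In those 2 runs its window no longer met the minimum of calls and cells.

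The Kdr start held a steep change in level, and the groups differed on its low side. Of the 8 shared CpGs that lie 44 to 140 bp into the gene, AG-881 was lower at 8 of 8, with levels of 0% to 9.09% in AG-881 cells and 11.1% to 50% in DMSO cells. The AG-881 pools had 0%, 3.45%, 0% and 2.70% of calls methylated, and the DMSO pools had 26.3%, 35.3%, 12.5% and 17.2%. The levels of the pools did not overlap, but they rested on few calls. The AG-881 pools at 0% had 9 calls from 3 cells and 7 calls from 2 cells. The DMSO pool at 12.5% had 2 of 16 calls methylated, from 3 cells. The interval of that DMSO pool overlapped the interval of each AG-881 pool. Among 5576 protein-coding genes with at least 5 shared-CpG calls per pool in this stretch, all 4 AG-881 pools lay below all 4 DMSO pools at 0.789%, and at 3.17% of the 537 whose DMSO pools averaged 20% or more. Kdr was singled out after its values were seen. Together, 2 of 82 AG-881 calls were methylated (2.44%, interval 0.297 to 8.53) and 18 of 81 DMSO calls (22.2%, interval 13.7 to 32.8), a difference of -19.8 points (-30.6 to -9.33). Over every call in the first 500 bp of the gene the levels were 2.78% of 108 AG-881 calls and 22.4% of 98 DMSO calls. The methylated calls were spread over cells: 2 of 20 AG-881 cells and 12 of 20 DMSO cells had at least 1. Leaving out any pool, with shared CpGs chosen again each time, kept the difference at shared CpGs between -21.5 and -16.3 points. Over every call, the first 500 bp of protein-coding genes was lower with AG-881 by at least 10 points at 3.69% of 6729 measured genes. The share was 23.9% of the 397 genes with a DMSO level of 20 to 40%, the class that holds Kdr. A fall at least as large as at Kdr was seen at 0.594% of the 6729. That share counts genes whose DMSO level was too low for such a fall. Within 1 kb of measured starts, the median DMSO level over every call was 1.19%. A share for a fall of that size among genes of similar level was not computed.

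The next 500 bp of Kdr did not show that difference. The 8 shared CpGs 548 to 664 bp into the gene had 53.7% of 82 AG-881 calls and 46.5% of 86 DMSO calls methylated, with AG-881 lower at 2 of them and higher at 6. A CpG 882 bp before the start had 8 of 8 AG-881 calls and 5 of 5 DMSO calls methylated. The 500 bp before the start had 1 of 18 AG-881 calls and 1 of 31 DMSO calls methylated. The low patch around the start thus had more methylated CpGs on either side. Over the whole 2-kb window the difference was -5.23 points (-15.5 to 5.17), with AG-881 pools at 40.7%, 31.1%, 41.2% and 25.4% and DMSO pools at 41.9%, 33.3%, 40.4% and 30.0%. The 500-bp division was chosen after the values were seen. Of 48 distance bins around the 6 starts, 14 had at least 20 calls in each group, and 3 of these were lower with AG-881 by 10 points or more and 2 higher. The interval of the difference left out 0 in 2 of the 14. Around all protein-coding starts, 7.23% of 23979 such bins were lower by that much with AG-881 and 3.51% higher, so 14 bins are too few to place against that background.

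**Figure D3:**
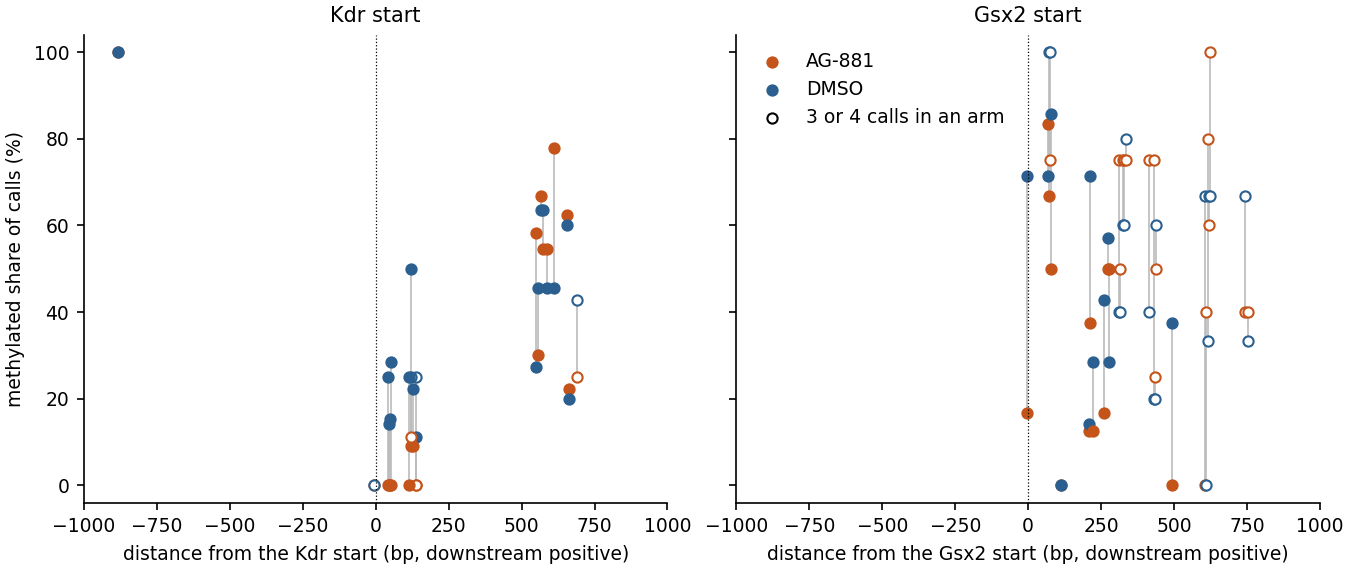
Methylated share of calls (%) at single CpGs within 1 kb of the Kdr and Gsx2 starts, against distance from the start (bp), for CpGs with 3 or more calls in each group. Filled points are shared CpGs, open points have 3 or 4 calls in a group, and grey lines join the AG-881 and DMSO values of a CpG. The 8 shared CpGs 44 to 140 bp into Kdr run from 0% to 9.09% in AG-881 cells and from 11.1% to 50% in DMSO cells, while those from 548 bp on are mixed.

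At the Gsx2 start, the 12 shared CpGs had 25 of 76 AG-881 calls methylated (32.9%) and 41 of 81 DMSO calls (50.6%), a difference of -17.7 points (-33.0 to -1.40). AG-881 was lower at 9 of the 12 CpGs, higher at 2 and equal at 1. The AG-881 pools had 16.7%, 44%, 50% and 14.8%, and the DMSO pools had 47.1%, 28.6%, 50% and 72%. The pools overlapped. With a pool left out, shared CpGs were chosen again from the remaining cells, so the set of CpGs changed too. The difference came to 3.81 points without AG-881 pool 4, where the DMSO level moved as well, from 50.6% to 42.9%. It came to -3.74 points without DMSO pool 8, where the AG-881 level moved from 32.9% to 25.5%. How far the pool or the CpGs made these shifts was not tested. Without DMSO pool 6 the difference was -30.5 points. Over every call in the same window it was -2.91 points (-13.8 to 8.08). Among starts with a DMSO level of 40 to 60% at shared CpGs, 26.8% of 257 were lower by at least 10 points with AG-881. Most cells were in between rather than at an extreme: 16 of 20 AG-881 cells and 15 of 27 DMSO cells with 3 or more calls had levels between 20% and 80%, and 1 AG-881 cell and 7 DMSO cells had 80% or more.

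**Figure D4:**
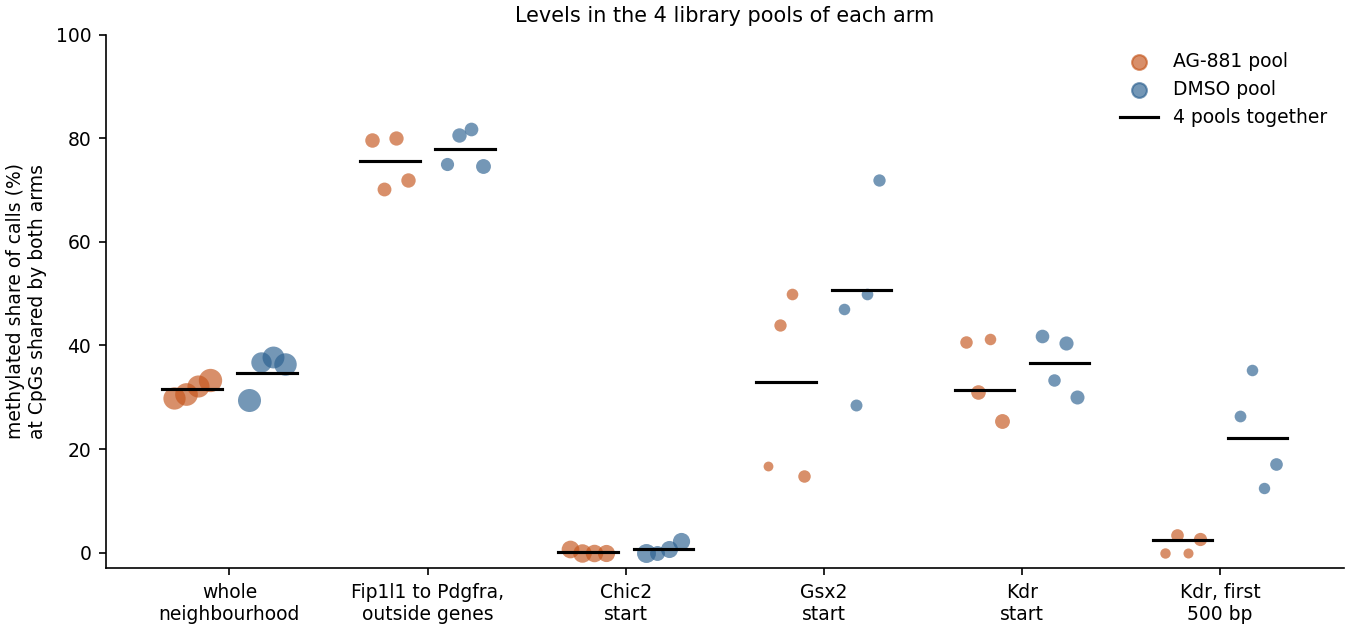
Methylated share of calls (%) at shared CpGs in the 4 library pools of each group, with AG-881 left of DMSO. Point area grows with the number of calls, and black bars give the 4 pools together. The pool levels of the 2 groups overlap at the other places plotted but not at the first 500 bp of Kdr. There the AG-881 pools lie at 0% to 3.45% and the DMSO pools at 12.5% to 35.3%, on few calls per pool.

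The Chic2 start was unmethylated at its 63 shared CpGs in both groups, with 1 of 626 AG-881 calls (0.160%) and 4 of 546 DMSO calls (0.733%) methylated. Over every call, 8 of 721 AG-881 calls (1.11%) and 40 of 667 DMSO calls (6%) were methylated, a value of -4.89 points (-7.06 to -2.90) that sets different mixtures of CpGs side by side. In the 500 bp before the start, 2.63% of 228 AG-881 calls and 13.7% of 262 DMSO calls were methylated. At the 21 shared CpGs of that stretch, 0 of 203 AG-881 calls and 2 of 179 DMSO calls were. At its 18 other CpGs, 6 of 25 AG-881 calls (24%) and 34 of 83 DMSO calls (41%) were methylated, a difference of -17 points whose interval (-35.5 to 6.71) includes 0. These more methylated CpGs made up 11% of the AG-881 calls of the stretch and 31.7% of its DMSO calls, so the values over every call also move with which CpGs were called in each group. At least 1 methylated call was seen in 4 of 44 AG-881 cells and 11 of 43 DMSO cells. Without the 2 DMSO cells that had the most methylated calls, the difference over every call was -2.94 points. At Kit, where no CpG was shared, the 500 bp before the start had 48% of 25 AG-881 calls and 25% of 24 DMSO calls methylated, and the 500 bp after it had 3.33% of 30 AG-881 calls and 13.5% of 37 DMSO calls. Both differences have intervals that include 0 (-6.66 to 48.7 and -25.8 to 6.35).

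**Figure D5:**
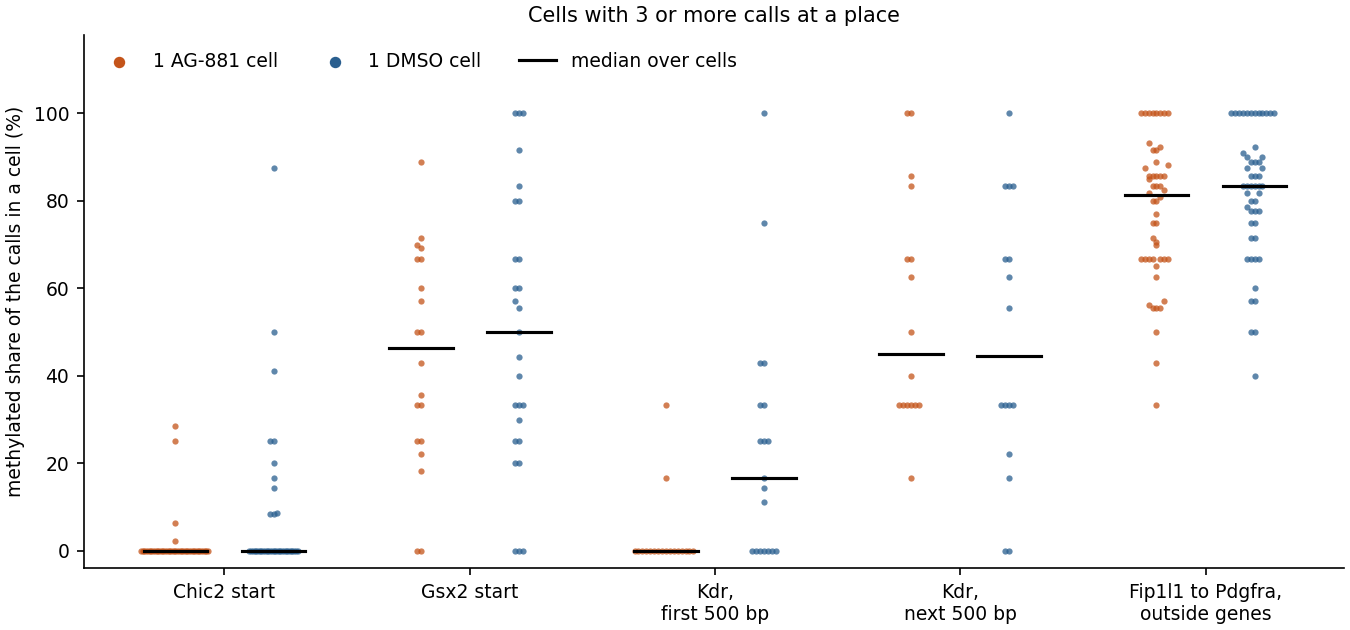
Methylated share of calls (%) in each cell with 3 or more calls at a place, with AG-881 left of DMSO and black bars for the median over cells. At the first 500 bp of Kdr the median was 0% over 18 AG-881 cells and 16.7% over 19 DMSO cells, while in the next 500 bp it was 45% over 16 AG-881 cells and 44.4% over 16 DMSO cells.

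Related genes elsewhere in the genome gave a mixed picture at shared CpGs within 1 kb of their starts. Of 14 receptor tyrosine kinases and ligands of the same families, 7 were measured, 2 lower with AG-881, 4 higher and 1 equal, with a median difference of 0.387 points, against a median of -0.00407 points over 7607 protein-coding starts. Flt4, which encodes a receptor for lymphatic growth factors, had 35.6% in AG-881 cells and 54.8% in DMSO cells, the lowest difference of the list at -19.2 points, and Vegfc, which encodes its ligand, had 21.9% in AG-881 cells and 18.6% in DMSO cells. A fall of at least 10 points was seen at 3.15% of those 7607 starts. Among the 257 starts with a DMSO level of 40 to 60%, the class that holds Flt4, it was seen at 26.8%. Of 11 insulator and cohesin genes, 6 were measured, and all 6 were below 5% in both groups, with a median difference of -0.389 points. Ctcf itself had 0.488% in AG-881 cells and 0.415% in DMSO cells.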

How the data were processed

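The authors deposited a table of methylated fractions (0, 0.5, 1 or missing) per cytosine position and cell, from single-cell RRBS of DNA cut with MspI, per the labels' protocols. The build is mm10, as named in the submitters' processing notes, and the aligner, the caller and a read threshold were items not given in the sources used here. Fractions as deposited by the authors come without read counts, so read depth is unknown, and depth is given as calls. Wells cannot be read from the column names, which carry group, pool and barcode, and each column was therefore matched to its group alone.

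Adjacent positions on chromosomes 1 to 19 and X were merged as the strands of 1 CpG. In RefSeq promoters, 98.4% of merged pairs fell on 1 CpG. Calls at 0.5 were left out. Shared CpGs, those with calls from 5 or more AG-881 cells and 5 or more DMSO cells, were compared, their calls pooled over cells, with Clopper-Pearson intervals at the 95% level, and intervals of differences combine those of both groups. PCR reads are not independent molecules, so these intervals and the limits for counts of 0 (3 calls) cover counting error only. Cells are not replicates and each group is 1 culture, so no test was run, and library pools served as technical batches. Starts came from the RefSeq promoter table (GRCm38.p6, the sequence of mm10), other gene ends from the RefSeq gene table. Windows, gene starts and blocks were compared genome-wide by the same rule, which was tested on simulated data. Python 3.11.15, NumPy 2.4.6 and SciPy 1.17.1 were used.

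The members, lists and rules were chosen with earlier results of these data known. The 6 genes and the other protein-coding genes with at least 50 calls and 10 cells per group at an end are named, as are all 7 measured windows. Alternatives changed the cells per CpG, ties, strand merging, weights, shallow cells, pools, window sizes and thresholds. The transcriptomes were not analysed here.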

Additional observations from a re-analysis of the deposited data

Results flagged for a closer look

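Over 16 sets of 4 pools with at least 10 calls at shared CpGs in each pool, 3 sets held a pool that stood apart from the other 3; chance gives this in about 1 in 20 sets of continuous values. For the whole neighbourhood, the DMSO pool with a level of 29.4% stood below the others, which had 36.9%, 37.7% and 36.4%. In that pool 212 of 503 calls came from the Chic2 start, which was near 0% in every pool. In the others 68 of 295, 131 of 403 and 135 of 453 calls came from there. Pool levels over the neighbourhood thus also move with which CpGs were called, and the cause of the gap was not tested. At the Chic2 start, an AG-881 pool had 0.645% (1 of 155 calls) and the other 3 had 0%. At the Scfd2 start, an AG-881 pool had 3.70% (2 of 54 calls) and the other 3 had 0%. The last 2 rest on 1 and 2 methylated calls. Where 3 pools are at 0%, any methylated call in the other pool sets it apart, so the rate of about 1 in 20 does not apply to those 2 sets.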

How the results depend on the processing

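The difference over the neighbourhood stayed below 0 under 15 of 16 alternatives, and without a minimum of cells per CpG, an alternative added after seeing the data, it was 0.0590 points. With 2 cells per CpG it was -0.164 points (-2.78 to 2.45). Leaving out a pool gave -4.40 to -1.67 points. Whenever a pool was left out, shared CpGs were chosen again from the remaining cells, so the set of CpGs changed as well. The difference between Fip1l1 and Pdgfra lay between -3.46 and -1.22 points under 8 alternatives and between -5.22 and 0.839 points without a pool. The count of 5-kb windows apart by 10 points was 0 of 8 measured windows with 2 cells per CpG and 0 of 4 with 10 cells. It was 0 of 8 with no minimum of cells, 0 of 1 with at least 200 calls and 0 of 7 at 20 points. With 10-kb windows it was 2 of 6. Without a pool it was 0 to 2. The Gsx2 window, with 76 AG-881 calls and 81 DMSO calls, could not be counted at 200 calls. The Gsx2 difference was -30.5 to 3.81 points without a pool. The Kdr difference over 500 bp either side of the start was -19.8 points, against -5.23 points over 1 kb. No shared CpG lay in the 500 bp before the start, so this used the same 8 CpGs as the first 500 bp of Kdr. The Chic2 value, to which CpGs called more often in DMSO cells contribute, was -4.23 points with 2 cells per CpG and -4.89 points with no minimum. The difference over the first 500 bp of Kdr was -21.7 to -19.4 points under 8 alternatives. The cause of these shifts was not tested. The Pdgfra start gave no value, because no CpG there was called in 5 cells of each group. At Gsx2 and between Fip1l1 and Pdgfra, no CpG was called in 10 cells of each group. No paired analysis was possible because the columns carry no replicate number that both groups share. Few calls per CpG and cell limit every place named.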

Other observations

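Bodies of the genes also differed in level. Kit was methylated along its body at 89.6% of 115 AG-881 calls and 89.6% of 96 DMSO calls, while its start was at 15.3% in AG-881 cells and 14.3% in DMSO cells. Lnx1, which encodes a ubiquitin ligase and overlaps the end of Fip1l1 from the other strand, had 83.7% of 43 AG-881 calls and 71.1% of 38 DMSO calls methylated at shared CpGs of its body, a difference of 12.7 points (-7.10 to 32.1). A stretch of 49 bp in the lncRNA gene Gm15984 (74716346 to 74716394) had 5 of 25 AG-881 calls (20%) and 0 of 21 DMSO calls methylated. A stretch between Kit and Kdr (75835686 to 75835806) had 67.3% of 55 AG-881 calls and 50% of 22 DMSO calls methylated. These stretches were named after their values were seen, and the intervals of these differences include 0.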
